A study of Mus musculus with 6 samples.

Results

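Homeostatic microglia genes are the genes by which resting microglia, the resident macrophages of the brain, are recognised and kept in their surveying state. A list of 31 genes under this heading, covering identity and surface genes, was read by symbol from the deposited table of 23057 genes. All 31 were present. Each had a level above 0 in each of the 6 libraries, and all 31 passed the filter on low values, among 14585 genes tested. Not all of them are particular to resting microglia: 17 were listed as shared with other leukocytes or macrophages, and inflammation induces Gpr84. The libraries came from brains of C57BL/6 mice, labelled whole brain, that had been perfused with saline 30 days after either a mock exposure or a cranial X-ray dose of 10 Gy given through a 10.08 mm field. There were 3 mock and 3 irradiated libraries, 1 per mouse. Both groups were of the same labelled strain, no genetic change or drug is named for either, and the sources used here do not give age or sex. The question was whether the 31 genes moved as one block or separately.

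Microglia read their surroundings through receptors for nucleotides, lipids, chemokines and growth factors, and signal through small adaptors that carry an immunoreceptor tyrosine-based activation motif (ITAM). Their identity depends on the transcription factors PU.1 (Spi1), IRF8 and SALL1, and their survival on the receptor CSF1R. When they take up debris they raise lysosomal and Fc receptor genes, and in many reactive states the purinergic receptor P2RY12 and TMEM119 are lowered. Cranial irradiation is known to activate microglia and to reduce their number early after exposure. In RNA from bulk tissue a change in the number of cells and a change in RNA per cell cannot be told apart.

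Values are given in FPKM (fragments for each kilobase of transcript, per library total). They summed to between 472450 and 625782 per library. The total used for scaling is not stated in the labels, so the depth behind single values is unknown. Region markers differed strongly between the groups. The summed level of 15 cerebellum genes was 1156 to 1662 FPKM in mock brains, against 95.7 to 131 in irradiated brains, and that of 8 telencephalon genes was 130 to 272 FPKM in mock brains, against 441 to 833 in irradiated brains. Neither pair of ranges overlapped, so the regional makeup of a library and irradiation cannot be told apart in any result given here.

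The members' changes were spread over a gradient, with calls in its upper part only. With limma on log2(FPKM + 0.5) over all tested genes, 5 of the 31 rose (16.1%) and 0 fell at a Benjamini-Hochberg adjusted p under 0.05, and 14 were higher and none lower without adjustment, that is at an unadjusted p below 0.05 (11.7% and 13.9% of all tested genes). Among all tested genes 7.72% passed, as 3.48% rose (508) and 4.24% fell (618); with each library centred on its median the split was 687 higher and 571 lower. The 5 that rose were Fcrls, Laptm5, Gpr84, P2ry6 and Fcer1g. Of these, Gpr84 passed the filter only through the irradiated libraries. With a mean of at least 1 FPKM, 3 of 28 tested members rose, and 452 genes in all. The shares of all tested genes given here also stand beside the counts of the smaller lists below. The members' median log2 change was 0.28, against -0.02 for all tested genes, and the single changes ran from -0.74 for Sall1 to 1.09 for Cd68. In 14 members (45.2%) the 3 irradiated libraries all lay above the 3 mock libraries, against 13.7% of all tested genes. No member had its 3 irradiated libraries all below, against 17.7% of all tested genes. The SD of the log2 changes was 0.45 over the members and 0.58 over all tested genes, so the members spread less than genes at large. For the following count no like share over all tested genes was taken. The 95% interval of the change held the members' own median in 18 members, lay wholly above it in 9 and wholly below it in 4. These 13 members outside the median depended on single libraries: they were 5 without mock 1, 6 without mock 2 or irradiated 3, and 8 to 11 without any other single library, in fits with fewer samples, and 3 with the telencephalon covariate described below.

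**Figure D1:**
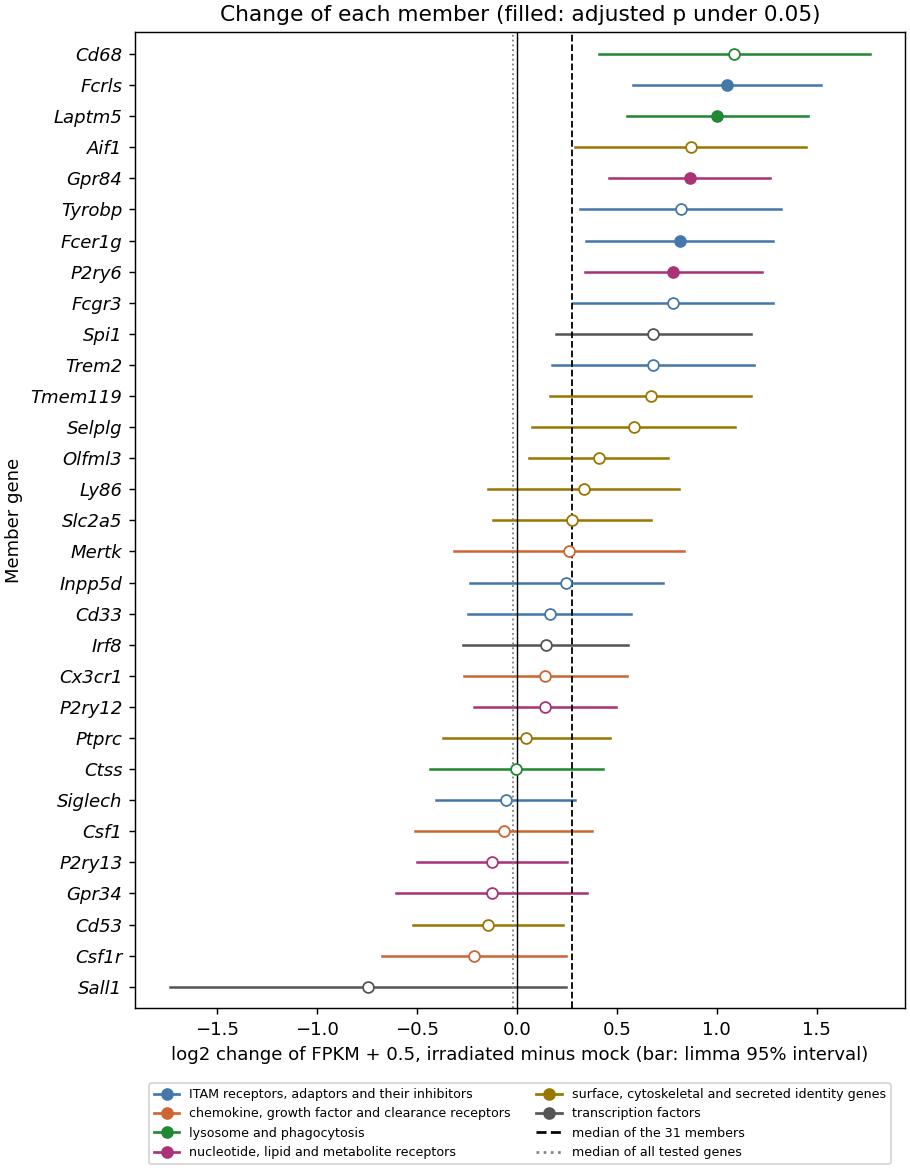
Log2 change of each of the 31 members, irradiated minus mock, on the log2(FPKM + 0.5) scale (x axis), with genes on the y axis and colours for their roles. Bars are limma 95% intervals, filled points have an adjusted p under 0.05, the dashed line is the members' median of 0.28 and the dotted line the median of all tested genes. The changes form a gradient from Sall1 at -0.74 to Cd68 at 1.09, and the 5 filled points all lie in its upper part.

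Calls in this design depended on single libraries. Without mock 1, mock 2 or irradiated 3, 0 of the 31 members were called in limma. Without adjustment, 12, 11 and 13 were higher and 0, 1 and 0 lower. Calls over all tested genes fell in the same fits, from 508 higher to 184, 192 and 148. Calls thus fell among members and among genes at large, but only the members' calls fell to 0. In the other fits with 1 library left out, both counts did not always move in the same direction. Without mock 3 or irradiated 1 there were 3 called members, and without irradiated 2 there were 8. The genes called higher in all were 306, 671 and 358 in these fits. With the level of 8 telencephalon genes as a covariate, limma called 0 members and 15 genes in all higher, and 3 members were higher and 1 lower without adjustment. The sums of these 8 genes did not overlap between the groups. The covariate therefore takes up part of the group difference and widens the intervals, so a call lost with it cannot be read as a result about region.

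Fc receptor-related genes, ITAM adaptors and their inhibitors were taken as a group of 8, of which 2 rose (Fcrls and Fcer1g) and 0 fell. The median log2 change was 0.73, and 0.39 with the telencephalon covariate. Fcrls was placed here as an Fc receptor-like gene and is not known to signal through an ITAM, and 1 of the other 7 members rose. Fcrls, an Fc receptor-like scavenger receptor largely restricted to microglia (GRCm38.p6 chromosome 3, 87250736 to 87263765), stood at 10.03, 6.62 and 10.4 FPKM in mock brains, against 18.5, 16.6 and 21.7 in irradiated brains. The groups did not overlap. Its log2 change was 1.05 (SE 0.21, limma adjusted p = 0.0208). Fcer1g, the ITAM adaptor shared by several Fc receptors (chromosome 1, 171229572 to 171234349), stood at 12.8, 10.6 and 10.2 FPKM in mock brains, against 25.98, 15.9 and 19.2 in irradiated brains. Its groups did not overlap, and its log2 change was 0.81 (SE 0.20, limma adjusted p = 0.0482). The call for Fcer1g was kept in 7 of 17 alternative settings, and that for Fcrls in 13 of 17.

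Tyrobp, the ITAM adaptor DAP12 through which TREM2 signals, had the widest change in absolute level. It was at 29.99, 35.1 and 35.7 FPKM in mock brains, against 82.5, 47.5 and 53.7 in irradiated brains. The groups did not overlap, irradiated 1 stood highest, and the change of 0.82 did not pass the adjustment (SE 0.22, limma adjusted p = 0.0589). Trem2, the lipid-sensing receptor paired with it, was at 10.1, 8.41 and 14.8 FPKM in mock brains, against 18.9, 15.03 and 19.2 in irradiated brains. The lowest irradiated library was barely above mock 3, and the log2 change was 0.68 (limma adjusted p = 0.0985). Fcgr3, a low-affinity Fc receptor that uses the Fcer1g adaptor, was at 7.25, 6.90 and 8.90 FPKM in mock brains, against 16.7, 9.83 and 14.9 in irradiated brains (log2 change 0.78, limma adjusted p = 0.0662). Its neighbouring Fc receptor genes are closely related in sequence, and the counting of reads shared between them is not stated in the labels.

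The other members of the group had smaller changes, with intervals that held 0. Siglech, a lectin of the Siglec family that also couples to DAP12, had the smallest ratio of highest to lowest library of the 31, with 3.33, 3.44 and 3.24 FPKM in mock brains, against 3.29, 3.04 and 3.25 in irradiated brains. Its log2 change was -0.06, with an interval of -0.40 to 0.29. Cd33, a further gene of the Siglec family, had a change of 0.17 (-0.24 to 0.57), and Inpp5d, which encodes the phosphatase SHIP1 that damps ITAM signals, one of 0.25 (-0.24 to 0.73). Receptors that use the same adaptor thus gave values as far apart as 0.68 for Trem2 and -0.06 for Siglech.

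**Figure D2:**
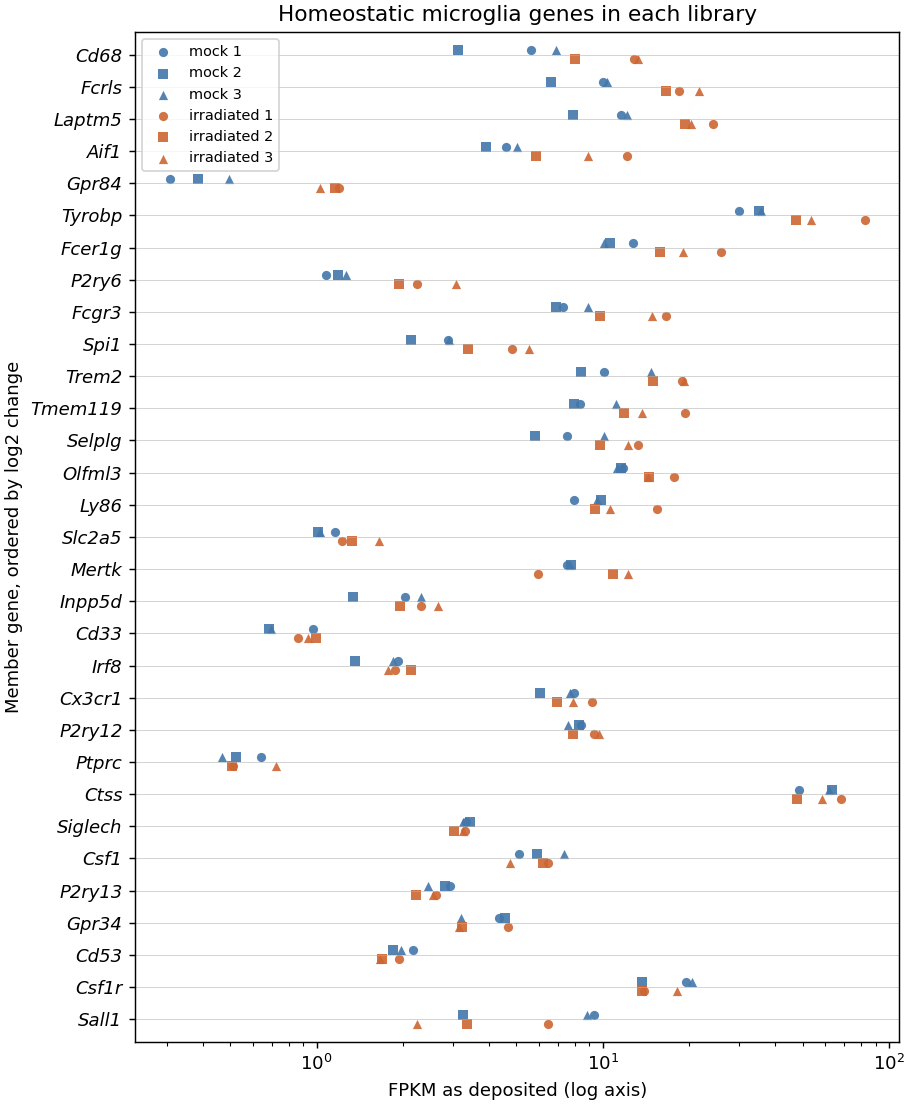
FPKM of each member in each library (x axis, log scale), with genes on the y axis ordered by log2 change and marker shapes for replicate numbers. In the upper rows the irradiated points lie to the right of all mock points, as for Tyrobp from 47.5 to 82.5 FPKM against 29.99 to 35.7 FPKM, while in the lower rows the groups overlap, as for Siglech.

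Of the 3 lysosomal members 1 rose and 0 fell, with a median log2 change of 1.003, and 0.35 with the telencephalon covariate. Laptm5, a lysosomal membrane protein of leukocytes (chromosome 4, 130912890 to 130936148), rose: it was at 11.6, 7.87 and 12.2 FPKM in mock brains, against 24.2, 19.5 and 20.4 in irradiated brains, with no overlap. Its log2 change was 1.003 (SE 0.20, limma adjusted p = 0.0215), and the call was kept in 13 of 17 settings. Cd68, a lysosomal glycoprotein of phagocytes, was at 5.61, 3.13 and 6.89 FPKM in mock brains, against 12.9, 7.997 and 13.3 in irradiated brains. It had the largest change of the 31, at 1.09, but also a wide error (SE 0.30, limma adjusted p = 0.0618). Ctss, the protease cathepsin S and the most abundant member per length in mock, was at 48.6, 63.6 and 62.03 FPKM in mock brains, against 67.9, 48.02 and 58.5 in irradiated brains. The groups overlapped fully, and its change was -0.003 (interval -0.43 to 0.43).

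Among surface, cytoskeletal and secreted identity genes 0 of 8 were called in limma, 4 were higher and 0 lower without adjustment, and the median log2 change was 0.37. Aif1, the actin-binding protein Iba1 by which microglia are stained, was at 4.61, 3.90 and 5.03 FPKM in mock brains, against 12.2, 5.85 and 8.89 in irradiated brains. Irradiated 2 lay just above the mock range and irradiated 1 far above it (log2 change 0.87, limma adjusted p = 0.0735). Tmem119, a membrane protein used to tell microglia from other macrophages, was at 8.33, 7.94 and 11.1 FPKM in mock brains, against 19.4, 11.8 and 13.7 in irradiated brains (log2 change 0.67, limma adjusted p = 0.0999). Olfml3, a secreted matrix protein of microglia, was at 11.3 to 11.7 FPKM in mock brains, against 14.4 to 17.7 in irradiated brains (log2 change 0.41, limma adjusted p = 0.138). Selplg, the selectin ligand PSGL-1, had a change of 0.58, Ly86, a partner of a toll-like receptor homologue, one of 0.33, and Slc2a5, the fructose transporter GLUT5, one of 0.28.

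The 2 pan-leukocyte surface genes of that group lay lowest in it. Ptprc, the phosphatase CD45, was among the lowest members, at 0.642, 0.521 and 0.467 FPKM in mock brains, against 0.513, 0.508 and 0.720 in irradiated brains (log2 change 0.05, interval -0.37 to 0.46). Cd53, a tetraspanin of leukocytes, was at 2.18, 1.85 and 1.97 FPKM in mock brains, against 1.94, 1.69 and 1.66 in irradiated brains. Its change was -0.14 (interval -0.52 to 0.23), so its interval lay below the members' median.

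Receptors for nucleotides and metabolites also split: 2 of 5 rose, 0 fell, and the median log2 change was 0.14 (0.009 to 0.29 over the settings tried). P2ry6, a receptor for UDP that triggers phagocytosis (chromosome 7, 100937630 to 100975498), rose, with 1.08, 1.19 and 1.27 FPKM in mock brains, against 2.24, 1.94 and 3.08 in irradiated brains (log2 change 0.78, SE 0.19, limma adjusted p = 0.0464). Gpr84, a receptor for medium-chain fatty acids that inflammation induces (chromosome 15, 103308233 to 103310670), rose from a low level. Its mock mean of 0.396 FPKM lay under the filter of 0.5 FPKM, which it passed only through the irradiated libraries, so its call is not independent of the filter; it was also called without a filter. It was at 0.307, 0.386 and 0.496 FPKM in mock brains, against 1.20, 1.16 and 1.03 in irradiated brains, with the irradiated libraries tightly grouped. Its log2 change was 0.86 (SE 0.18, limma adjusted p = 0.0244), which the pseudocount holds down: with a pseudocount of 0.1 it was 1.32. The P2ry6 call was kept in 7 of 17 settings and the Gpr84 call in 10 of 16.

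P2ry12, the ADP receptor that draws microglial processes to injury, was at 8.41, 8.26 and 7.56 FPKM in mock brains, against 9.36, 7.86 and 9.72 in irradiated brains. The groups overlapped, and its log2 change was 0.14 (interval -0.22 to 0.50). P2ry13, a further ADP receptor encoded beside it on chromosome 3, was at 2.92, 2.82 and 2.45 FPKM in mock brains, against 2.62, 2.22 and 2.56 in irradiated brains (log2 change -0.12, interval -0.50 to 0.25). Gpr34, a receptor for lysophosphatidylserine, had a change of -0.12 (interval -0.60 to 0.35). The intervals of all 3 ended below 1 on the log2 scale, which was about the change of Fcrls and Laptm5.

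No chemokine, growth factor or clearance member was called in limma (0 of 4, and 0 without adjustment). Csf1r, the receptor on which microglia depend for survival, was at 19.5, 13.7 and 20.5 FPKM in mock brains, against 13.9, 13.8 and 18.2 in irradiated brains, a log2 change of -0.21 (interval -0.68 to 0.25). Csf1, one of its ligands and also made outside microglia, had a change of -0.06 (-0.51 to 0.38). Cx3cr1, the fractalkine receptor, was at 7.92, 6.05 and 7.67 FPKM in mock brains, against 9.22, 6.94 and 7.86 in irradiated brains, a change of 0.14 (-0.27 to 0.55). Mertk, a phagocytic receptor also found on astrocytes, was tight in mock, at 7.49, 7.77 and 7.70 FPKM, and scattered in irradiated libraries, at 5.94, 10.9 and 12.2 FPKM (log2 change 0.26, interval -0.31 to 0.84).

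Ligands and other partners of the member receptors were listed separately. Of 14 tested partners 2 rose and 0 fell, against 3.48% and 4.24% of all tested genes. The partners' median was 0.36, and it was 0.23 without irradiated 3, 0.18 with quantile normalization and 0.03 with the telencephalon covariate. Cx3cl1, the neuronal ligand of Cx3cr1, was at 115, 46.1 and 110 FPKM in mock brains, against 188, 201 and 261 in irradiated brains (log2 change 1.35, SE 0.34, limma adjusted p = 0.0493). Il34, a neuronal ligand of Csf1r, was at 19.5, 10.4 and 19.5 FPKM in mock brains, against 39.5, 31.2 and 51.5 in irradiated brains (log2 change 1.31, SE 0.28, limma adjusted p = 0.0289). Both were lowest in mock 2, where the telencephalon sum was also lowest, at 130 FPKM. With the telencephalon covariate their changes were 0.18 and 0.46, and neither was called. The Cx3cl1 call was lost when any 1 library was left out (adjusted p of 0.054 to 0.17), and that of Il34 without mock 1, mock 2 or irradiated 3 (largest adjusted p = 0.108). Apoe, a lipid carrier that binds Trem2 and the most abundant gene of the list, had a change of 0.39 (limma adjusted p = 0.486).

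The 3 transcription factors had changes of different sign, and 0 of 3 were called in limma (1 higher and 0 lower without adjustment). Spi1 was at 2.88, 2.13 and 2.90 FPKM in mock brains, against 4.84, 3.38 and 5.51 in irradiated brains, with no overlap (log2 change 0.68, limma adjusted p = 0.0882). Irf8 was at 1.37 to 1.92 FPKM in mock brains, against 1.77 to 2.14 in irradiated brains (0.14, interval -0.27 to 0.56). Sall1 was the member with the lowest change and the widest interval (-0.74, -1.73 to 0.24), and its change was -1.19 without mock 2 and -0.44 without irradiated 3. It was at 9.33, 3.26 and 8.85 FPKM in mock brains, against 6.44, 3.36 and 2.24 in irradiated brains. The 3 libraries with Sall1 above 6 FPKM were mock 1, mock 3 and irradiated 1. In those same libraries Doc2g, which output neurons of the olfactory bulb express and which was chosen after its values were seen, was at 94.4, 118 and 123 FPKM, against 6.22, 3.96 and 4.26 FPKM in the others. Whether olfactory bulb tissue had a part in the Sall1 values was not tested. Of 10 further tested transcription factors of microglia, 0 were called in limma (4 higher and 0 lower without adjustment), with a median of 0.37. That median was 0.19 without mock 2 or without a filter, 0.23 with the length and GC correction and -0.07 with the telencephalon covariate. The most abundant, Mef2c, which neurons also express, ranged from 3.71 to 21.8 FPKM in mock brains, against 18.9 to 46.6 in irradiated brains.

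Part of the variation was shared by library. In irradiated 2, 26 of the 31 members lay below their own group's mean, and in irradiated 1, 23 lay above it; the shares above the group mean were 16.1% and 74.2%, against 48.3% and 46.9% of all tested genes. In mock 2, 21 members lay below the mock mean. The members' median, with each gene centred on its mean over 6 libraries, was -0.20, -0.31 and -0.12 in mock brains, against 0.32, 0.04 and 0.24 in irradiated brains, on the log2 scale. Irradiated 1, the library where members stood highest, also had the highest sums of border macrophage genes (26.4 FPKM, against 13.2 and 16.2 in the other irradiated libraries and 8.38 to 10.4 in mock) and of monocyte and neutrophil genes (41.6 FPKM, against 5.33 and 5.31 in the other irradiated libraries and 9.07 to 12.1 in mock). Without irradiated 1, Fcrls, Laptm5 and Gpr84 were still called, and Fcer1g and P2ry6 were not. In that fit 671 genes in all were called higher, against 508 as reported. Whether the cells behind these sums had a part in the calls was not tested.

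**Figure D3:**
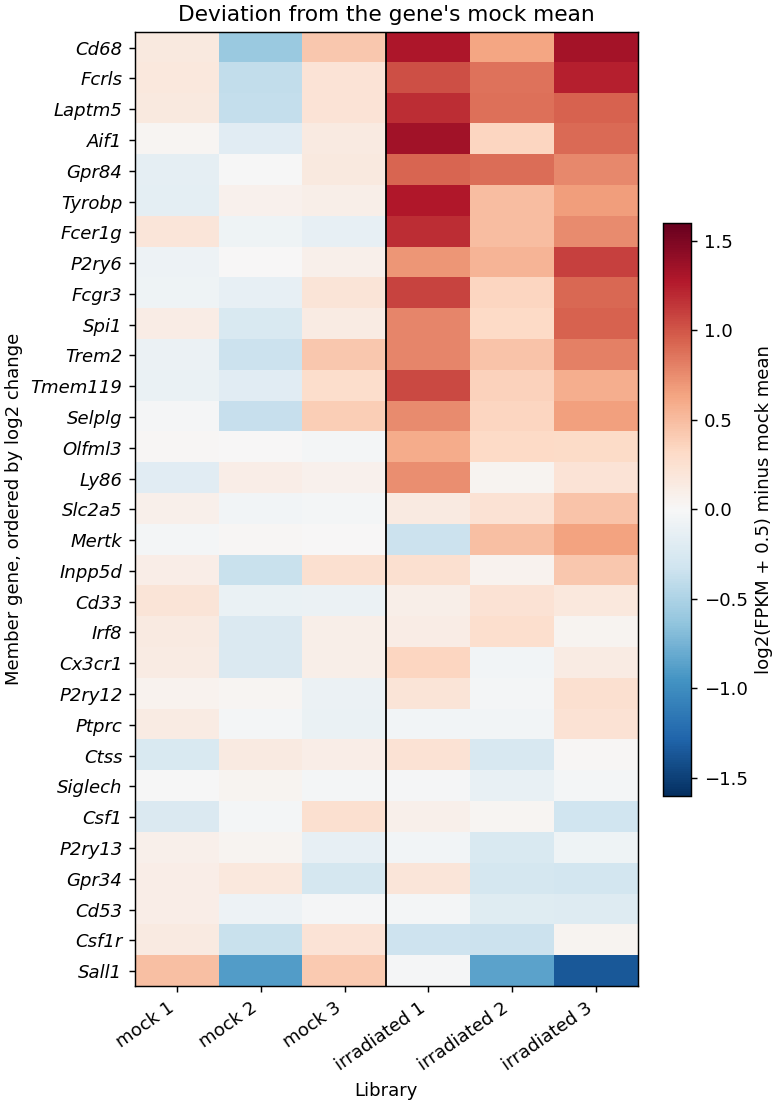
Log2(FPKM + 0.5) of each member minus its mean over the mock libraries (colour), with libraries on the x axis and genes on the y axis ordered by log2 change. Irradiated 1 and 3 are darkest in the upper rows and irradiated 2 is paler, and 26 of 31 members in irradiated 2 lie below their group's mean.

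For each member the log2 ratio to the median of the other 30 was taken in each library. The ratio was higher in all irradiated than in all mock libraries for 12 members (38.7%), against 5.86% of all tested genes, and lower for 4, Csf1r, Cd53, P2ry13 and Siglech (12.9%), against 23.1%. The median member was itself higher in each irradiated than in each mock library, which lowers this ratio for genes at large, so the members' counts are not read against these shares. The ratio of Laptm5 to Csf1r, a pair chosen after its values were seen, was 0.592, 0.575 and 0.594 in mock brains, against 1.74, 1.41 and 1.12 in irradiated brains. The ratio of Tyrobp to P2ry12, chosen in the same way, was 3.57, 4.26 and 4.72 in mock brains, against 8.81, 6.05 and 5.52 in irradiated brains. Ratios of related genes went both ways. That of Fcer1g to Fcgr3, an adaptor and a receptor that uses it, was 1.76, 1.54 and 1.14 in mock brains. It was 1.56, 1.62 and 1.29 in irradiated brains, and the groups overlapped. The ratio of Tyrobp to Trem2 overlapped as well, at 2.41 to 4.18 in mock brains, against 2.79 to 4.35 in irradiated brains. The ratio of P2ry12 to P2ry13, neighbouring genes of ADP receptors, did not overlap. It was 2.88, 2.92 and 3.09 in mock brains, against 3.57, 3.54 and 3.79 in irradiated brains. A comparison of 3 values with 3 can reach no exact permutation p below 0.1, and these ratios are given as values only.

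Members listed as microglia-enriched and members listed as shared with other leukocytes both spanned the gradient. Of 13 members listed as microglia-enriched, 2 rose (Fcrls and P2ry6), with a median log2 change of 0.14. The class is a chosen list that includes Csf1r, P2ry6 and Trem2, and expression of its genes in other macrophages was not measured here. Of 17 members shared with other leukocytes or macrophages, 3 rose (Fcer1g, Gpr84 and Laptm5), with a median of 0.58; Csf1 was placed in neither class. With the telencephalon covariate the medians were 0.14 and 0.31, and without irradiated 2 they were 0.23 and 0.71. Over the settings tried the median was 0.11 to 0.23 for the microglia-enriched class and 0.31 to 0.74 for the shared class. The microglia-enriched class held members from the bottom to the top of the gradient, with Sall1 at -0.74 and Fcrls at 1.05, and so did the shared class, with Cd53 at -0.14 and Cd68 at 1.09. The difference between the classes was not tested.

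Microglial genes outside the members showed a like mixture. Of 28 tested genes of a further microglia list, 3 rose and 0 fell, against 3.48% and 4.24% of all tested genes. The list's median log2 change was 0.25 (0.14 without irradiated 1 and 0.38 with quantile normalization). In 10 of its genes the irradiated libraries all lay above mock and in 2 all below. The shares of all tested genes were 13.7% and 17.7%. C1qc, a chain of complement C1q, was at 40.6, 37.2 and 52.5 FPKM in mock brains, against 99.02, 67.4 and 92.4 in irradiated brains (log2 change 0.98, SE 0.21, limma adjusted p = 0.0281). Cd52, a small surface glycoprotein of leukocytes, was at 1.79, 3.12 and 3.78 FPKM in mock brains, against 18.4, 7.13 and 8.95 in irradiated brains (log2 change 1.75, SE 0.36, limma adjusted p = 0.0240). Ltc4s, the leukotriene C4 synthase, had a change of 1.25 (SE 0.30, limma adjusted p = 0.0441). Those 3 calls were lost with the telencephalon covariate and without mock 1, mock 2 or irradiated 3, and that of Ltc4s also without irradiated 1 or irradiated 2 (largest adjusted p = 0.149). Lgmn, a lysosomal protease and the most abundant gene of the list, had a change of -0.24 (limma adjusted p = 0.449). Of 14 genes that act downstream of ITAM receptors 0 were called in limma. Without adjustment 2 were higher and 2 lower, near the shares of all tested genes (11.7% and 13.9%). The median of the 14 genes was 0.36 (0.16 with the telencephalon covariate). The most abundant of them, Inppl1, a relative of Inpp5d, had a change of -0.49 (limma adjusted p = 0.186).

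For 13 tested genes of disease-associated microglia, a reactive state in which Trem2 takes part, the median was -0.07. It ranged from -0.14 to 0.05 over the settings tried. Against 3.48% and 4.24% of all tested genes, 3 of the 13 rose and 0 fell. They were Lpl, a lipase, at 1.51 on the log2 scale (SE 0.21, limma adjusted p = 0.00476), Cst7, a protease inhibitor, with 1.08 (SE 0.21), and Timp2, a metalloproteinase inhibitor that many brain cells make, with 0.76 (SE 0.16). The Lpl call was kept without any 1 library, that of Cst7 was lost without mock 1, mock 2, mock 3 or irradiated 3, and that of Timp2 was kept, among fits with 1 library left out, only without irradiated 1; with the telencephalon covariate all 3 were lost. Cst7 passed the filter only through the irradiated libraries, so its call is not independent of the filter, although it was also called without one. It was at 0.220, 0.105 and 0.124 FPKM in mock brains, against 1.21, 0.646 and 0.801 in irradiated brains. Fth1, the ferritin heavy chain and the most abundant gene of the list, had a change of -0.28 (limma adjusted p = 0.606).

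Markers of other blood-borne and border cells moved in part with the members. All 12 border macrophage genes were above 0 in each library, 8 were tested, 0 were called in limma (2 higher and 0 lower without adjustment) and their median was 0.49 (0.76 with a mean of at least 1 FPKM). Their summed level was 8.38 to 10.4 FPKM in mock brains, against 13.2 to 26.4 in irradiated brains. The 31 members summed to 248 to 290 FPKM and 304 to 425 FPKM in the same groups. The most abundant, Cbr2, was at 1.43, 1.46 and 2.46 FPKM in mock brains, against 11.7, 1.64 and 2.86 in irradiated brains. Of 12 monocyte and neutrophil genes 4 were tested and 0 were called in limma (1 higher and 0 lower without adjustment), with a median of 0.14 that ranged from -0.83 (without irradiated 1) to 0.57 over the settings tried; Ly6c2, Plac8, Camp, Retnlg, Mpo, Elane and Ltf were listed at 0 in at least 1 library. S100a9, the most abundant, was at 15.1 FPKM in irradiated 1 and at 2.33 and 1.10 FPKM in the other irradiated libraries. Of 15 lymphocyte genes that were present, 2 were tested, Zap70 with a log2 change of 1.402 and Lck with 0.87 (limma adjusted p of 0.00421 and 0.0468; among fits with 1 library left out, the Lck call was kept only without irradiated 2). Lck passed the filter only through the irradiated libraries and was not called without a filter, where the list's median was 0.02, and both calls were lost with the telencephalon covariate. Of the 15 genes, 10 were listed at 0 in at least 1 library, and the sums were 1.58 to 2.84 FPKM in mock brains, against 5.02 to 6.78 in irradiated brains. Zap70 and Lck made up most of the sum in each library. Zap70 was at 0.677 to 1.21 FPKM in mock brains, against 3.19 to 3.55 in irradiated brains. Lck was at 0.376 to 0.606 FPKM, against 0.985 to 1.79. The sums therefore do not show a rise of the other lymphocyte genes. The 4 red cell genes summed to 10.7 to 19.1 FPKM in mock brains, against 19.5, 1.03 and 4.79 in irradiated brains, and the 1 tested, Hba-a1, was not called (log2 change -1.59, limma adjusted p = 0.238). The part of these cells in the members' values was not tested.

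The members differed in a property of their transcripts that also went with the change across all genes. The longest annotated transcript of a member was 597 bases (Tyrobp) to 5740 bases (Ptprc) long and had a GC content of 37.1% (Gpr34) to 59.1% (Tmem119). Across the 31 members the log2 change had a Spearman rho of 0.48 with GC content and of -0.48 with length. Across 14052 tested genes with an annotated transcript the values were 0.32 and -0.22. These are descriptions across genes of the same 6 libraries, and genes are not independent replicates. All 8 members under 47% GC, a limit set after the values were seen, had changes between -0.14 and 0.17: Gpr34, P2ry12, Ptprc, Cd53, Cd33, P2ry13, Siglech and Ctss. The 23 members at or above that limit had a median of 0.67.

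A lowess correction of each library for length and GC content reduced the spread of the members. The SD of the 31 changes went from 0.45 to 0.37, the members with an interval outside the members' median from 13 to 8, and the members' median from 0.28 to 0.35. The median of the 8 members of low GC content was -0.03 before and 0.004 after the correction. That of the 23 other members was 0.67 before and 0.45 after. Across members the corrected change still had a rho of 0.28 with GC content and -0.34 with length, against -0.007 and 0.08 across all tested genes with an annotated transcript. P2ry12 moved from 0.14 to 0.29. For the members with the shortest transcripts, Tyrobp moved from 0.82 to 0.50 and Fcer1g from 0.81 to 0.55. After the correction 5 members were called higher, namely Fcrls, Laptm5, Gpr84, Aif1 and Fcgr3, so Fcer1g and P2ry6 gave way to Aif1 and Fcgr3. This alternative was added after the data were seen.

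**Figure D4:**
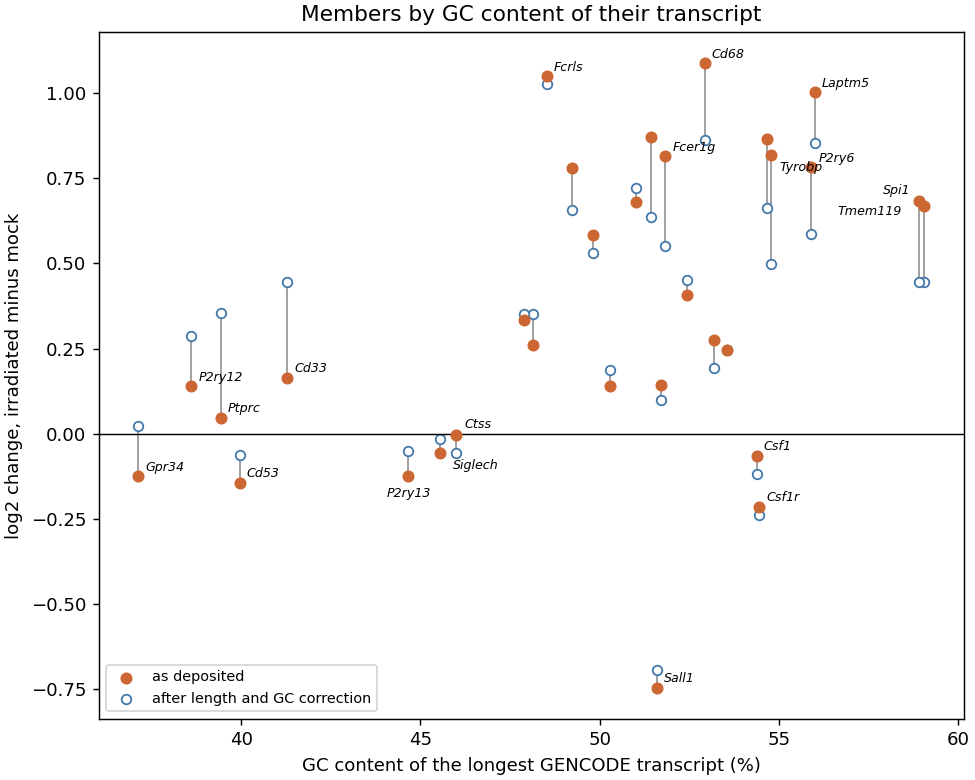
Log2 change of each member, irradiated minus mock (y axis), against the GC content of its longest annotated transcript in percent (x axis), as deposited (filled) and after the length and GC correction (open), joined by a line. Members under 47% GC lie between -0.14 and 0.17 as deposited, while members of higher GC content spread from -0.74 to 1.09.

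Promoter sequence was searched as well, since PU.1 is itself a member and binds purine-rich ETS sites. Microglial identity depends on PU.1, so the choice of members is not independent of such sites. The members' shares were set beside all genes with a window only, and not beside other leukocyte genes. Windows from 250 bases before to 50 after the start site (RefSeq, GRCm38.p6) were at hand for 24 of the 31 members, and not for Tmem119, Csf1r, Gpr34, Tyrobp, Selplg, P2ry6 and Spi1. The core AGGAAGT, on either strand, was in the windows of 8 of 24 members (33.3%) and of 10.7% of all 27025 genes with a window. The overlapping core GAGGAA was in 13 of 24 (54.2%) against 31.3%. The stretches below show the latter, in capitals, before the start site of 2 members with a change near 0, P2ry13 and Cd53, and of 2 from the upper part of the gradient, Trem2 and Cd68, written 5′ to 3′ on the strand of the gene, so that TTCCTC is the core on the other strand.
P2ry13, chr3:59210885-59210970, minus strand: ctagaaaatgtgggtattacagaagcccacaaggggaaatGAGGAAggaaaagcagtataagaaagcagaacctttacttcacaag
Cd53, chr3:106790150-106790228, minus strand: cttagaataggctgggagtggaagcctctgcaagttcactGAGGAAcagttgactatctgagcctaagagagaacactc
Trem2, chr17:48346321-48346400, plus strand: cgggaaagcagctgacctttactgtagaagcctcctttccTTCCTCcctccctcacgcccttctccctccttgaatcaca
Cd68, chr11:69666350-69666420, minus strand: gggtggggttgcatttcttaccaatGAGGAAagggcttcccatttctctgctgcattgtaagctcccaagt

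The core was thus present in windows of members from both ends of the gradient. Among the 5 members that rose, AGGAAGT was in the windows of Fcrls and Gpr84, and among those with an interval that held 0 in those of P2ry12, Sall1, Ptprc, Ctss, Cd53 and Inpp5d. The search covered 14 strings on both strands. GAGGAAGT was in 12.5% of the members' windows against 3.69% of all genes, and GGAAGT in 12 of 24 windows against 26.5%, and both overlap the cores above. A pair of ETS-IRF composite strings, a looser and a stricter one, were in 1 window, that of Cd68 (4.17% against 3.16% and 0.847%). The IRF repeat was in 8.33% against 3.99%, and the IRF string AGTTTC in 6 of 24 windows against 18.0%. The RUNX strings were TGTGGT (33.3% against 18.9%) and AACCACA (8.33% against 6.09%), which overlap in part. The AP-1 string TGACTCA (4.17% against 5.95%), the E-box CACGTG (8.33% against 8.09%), the TATA string TATAAA (20.8% against 15.7%) and the MEF2 string (in 0 windows, against 0.122%) completed the search. A match is a string in a window and not a measured site of binding.

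**Figure D5:**
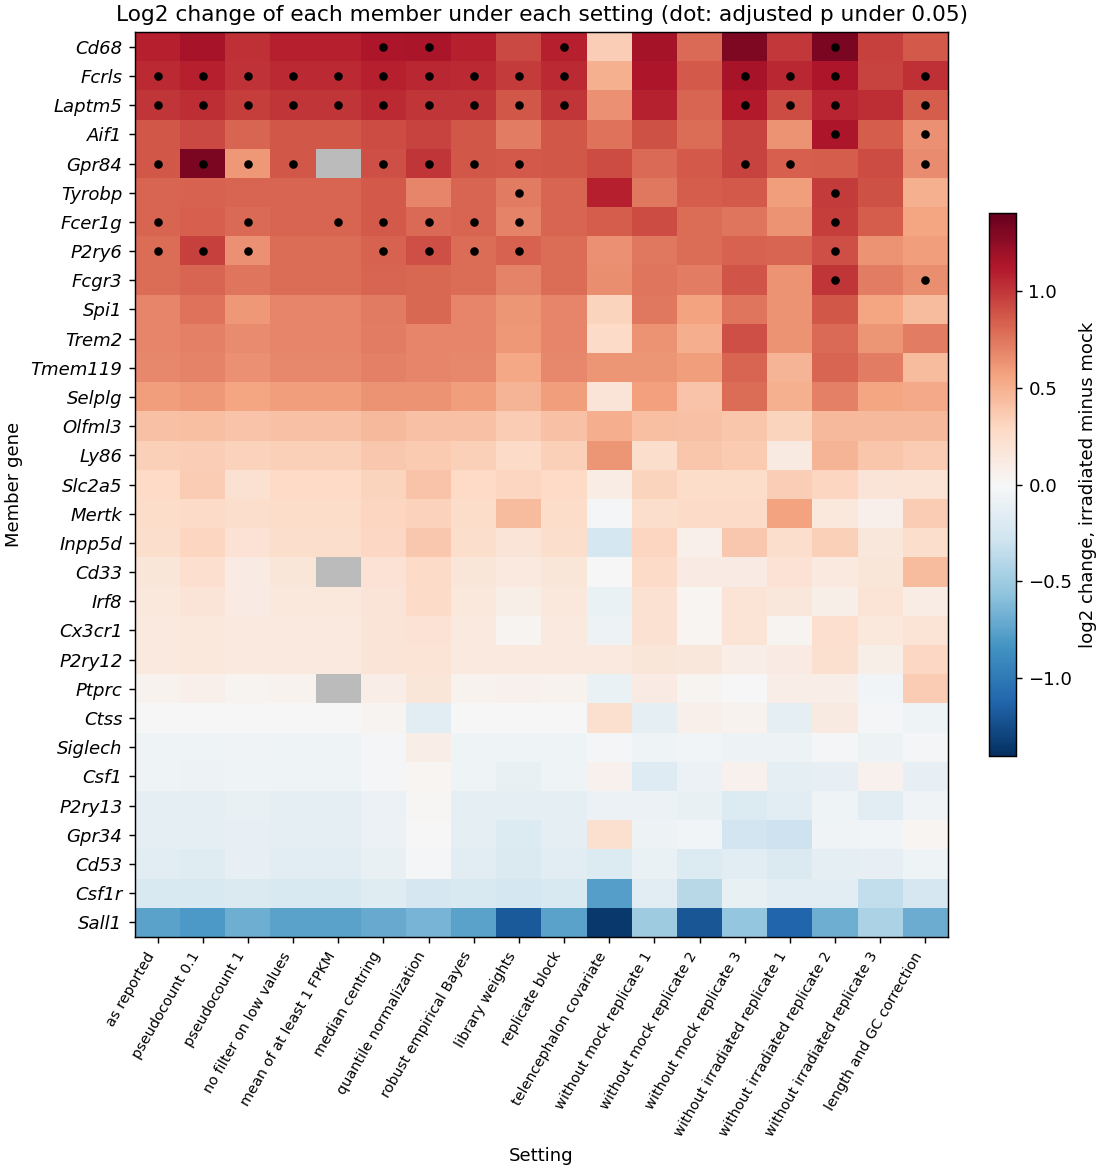
Log2 change of each member (colour) under each setting of the fit (x axis), with genes on the y axis ordered by log2 change, dots for an adjusted p under 0.05 and grey for members below the filter of that setting. Fcrls and Laptm5 carry a dot in 13 of 17 alternative settings, and no member carries one without mock 1, without mock 2, without irradiated 3 or with the telencephalon covariate.

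Across the 17 alternative settings the upper part of the gradient kept its sign. All 14 members with an interval above 0 had a positive change in each setting, while 10 members with an interval holding 0 changed sign in at least 1. Aif1, Tyrobp, Cd68 and Fcgr3, not called in the reported fit, were called in 2, 2, 4 and 2 settings, and all 4 were called without irradiated 2. Exons of Gpr84 and Cx3cr1 overlap an annotated antisense gene, and those of P2ry12 and Csf1r a gene on the other strand (Med12l and Hmgxb3). Whether the counting used strand is not stated in the labels, so reads of these pairs cannot be told apart.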

How the data were processed

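RNA of 6 mouse brains, 3 mock and 3 irradiated, was sequenced as stranded total RNA libraries after ribosomal RNA removal, with single-end reads of 75 nucleotides, per the labels' protocols. The authors deposited FPKM, 1 column per library. Per the submitters' processing notes, TopHat, Cufflinks and Cuffdiff were used with mm10; versions, settings, roles and annotation are not stated there. One leftover header line was removed, which left 23057 symbols. Low FPKM values shared no common step (at most 1.76% of genes had the same ratio to mock 1), so relative depth was not recovered and no count test was run.

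The test was limma 3.58.1 (R 4.3.3) on log2(FPKM + 0.5), for genes whose mean reached 0.5 FPKM. Unadjusted counts use a p under 0.05. The model had 1 factor, group, and a trended empirical Bayes step. P-values are two-sided and adjusted over all 14585 genes, and a call is an adjusted p under 0.05. Log2 changes understate those of low genes. On simulated data with the means and residual SDs of these 14585 genes, the fit called 44% of genes given a log2 change of 1. It called 90.0% of genes given a change of 2, and unchanged genes made up 6.94% of its calls. The simulated noise was independent for each gene and library, with no variation shared by library and no difference of region. These rates therefore need not hold for the real libraries. The labels give separate mice but no shared litter or day.

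The members and lists were chosen with earlier results of these data known. Named genes are all members, the called genes of each other list (at most 6) and its most abundant gene; others are marked. Of the listed symbols, 1 was matched by an older name (Vsir) and 2 were not matched (Trac and Hbb-bt). Length and GC content came from the longest GENCODE transcript (96.3% of tested genes), and coordinates and promoters from RefSeq GRCm38.p6. Alternatives were other pseudocounts (0.1 and 1), filters (none, or a mean of at least 1 FPKM), scalings and weights, robust empirical Bayes, a replicate block, a telencephalon covariate, an adjusted p under 0.1 and leaving out each library with the tested genes kept. A length and GC correction (lowess, span 0.3) was added after the data were seen.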

Additional observations from a re-analysis of the deposited data

How the results depend on the processing

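No member was called lower in any setting, and the members' median stayed between 0.19 (without irradiated 3) and 0.38. Members called higher, 5 as reported, were 3 without a filter on low values, 3 with a mean of at least 1 FPKM, 0 with the telencephalon covariate, 12 with an adjusted p under 0.1 and 0 to 8 when 1 library was left out. With the replicate number as a block there were 3, Cd68, Fcrls and Laptm5. The block gave 401 genes higher and 394 lower in all. Same-numbered libraries deviated together with correlations of -0.33, 0.19 and 0.20, so the numbers were not taken to pair the mice. Over all genes, 508 higher and 618 lower as reported, the counts were 863 and 976 with library weights, 15 and 53 with the telencephalon covariate, 829 higher with the length and GC correction, 1002 and 1149 with an adjusted p under 0.1, and 148 to 671 higher and 254 to 684 lower when 1 library was left out. The interval of the change held the members' median in 18 members as reported and in 28 with the telencephalon covariate. It did so in 23 with the length and GC correction and in 20 to 26 when 1 library was left out. The covariate and the leave-outs have fewer residual degrees of freedom. The covariate also goes with the group, which widens the intervals, so the 28 cannot show that members moved together. Sign changes were confined to genes not called in the reported fit. With the telencephalon covariate they were Cx3cr1 (-0.067), Gpr34 (0.22), Ptprc (-0.095), Ctss (0.22), Csf1 (0.063), Inpp5d (-0.24), Irf8 (-0.096), Mertk (-0.033), Mef2c (-0.79), Apoe (-0.010) and S100a9 (0.82). With quantile normalization they were P2ry13 (0.016), Siglech (0.088), Gpr34 (0.0065) and Csf1 (0.029), with median centring Ctss (0.037), and with the length and GC correction Gpr34 (0.024). Leaving out 1 library gave -0.043 to 0.11 for Ptprc, -0.13 to 0.13 for Ctss, -0.18 to 0.065 for Csf1 and -1.12 to 0.52 for S100a9. The cause of these differences was not tested. The unknown depth limits Gpr84, Ptprc and Cd33, the members under 1 FPKM on average in mock.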
